A study of Homo sapiens with 6 samples.

Results

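KCTD12 and 9 related genes of the KCTD family (KCTD1, KCTD2, KCTD3, KCTD5, KCTD9, KCTD10, KCTD13, KCTD15 and KCTD20) were followed in BT-549 cells with and without silencing of the NEAT1 lncRNA. They are 10 of the 25545 genes in the deposited expression table, whose unit is TPM (read numbers corrected for the length of the transcript, with a sum of 1000000 in every library), found there by symbol. KCTD12 was chosen by its difference between the groups, and the relatives were listed by name with the results of these libraries known. The differences of the 10 genes between the groups are therefore a description. Where the fit over all genes places a member past or short of its threshold, this is given as a place among all genes and not as a test of the member.

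The cells belong to an established line of triple-negative breast cancer, BT-549, grown in medium with serum and insulin. The 6 libraries came from 3 cultures transfected with a control siRNA (CsiRNA) and 3 transfected with an siRNA against NEAT1 (NEAT1siRNA), each harvested 48 h later. Per-library values are given below in the order of replicates 1, 2 and 3. The sample titles carry the prefix tet for both groups, although the labels name no inducer. One cell line was used, and the labels tell of no second NEAT1 siRNA, so an effect of the siRNA sequence itself and an effect of NEAT1 loss cannot be told apart. In bulk RNA, a change in every cell and a change in a share of the cells cannot be told apart either.

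KCTD proteins share a BTB domain related to the tetramerization domain of voltage-gated potassium channels, and they assemble into rings. Many of them act as substrate adaptors of the cullin 3 (CUL3) ubiquitin ligase. KCTD12, with KCTD8 and KCTD16, is better known as an auxiliary subunit of the GABA-B receptor, where it binds the receptor tail and the G protein beta-gamma dimer and speeds desensitization. KCTD1 and KCTD15 bind AP-2 transcription factors, KCTD10 and KCTD13 target small GTPases, and KCTD2 and KCTD5 are close relatives that recruit CUL3.

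The libraries held 15786988 to 20342861 reads in genes, as recovered from the deposited tables. NEAT1 itself measured 13.4, 7.68 and 10.8 TPM with CsiRNA and 4.36, 2.96 and 2.73 TPM with NEAT1siRNA, so the groups did not overlap in the targeted transcript. The mesenchymal markers VIM, FN1, CDH2 and ZEB1 lay between 13.5 and 1112 TPM. Of these, FN1 (log2 fold change -0.47, adjusted p = 0.00116 from limma) and CDH2 (-0.34, adjusted p = 0.0186 from limma) were lower with NEAT1siRNA, without overlap, and VIM and ZEB1 were not past the threshold. The summed level of the 4 genes was 1150 to 1335 TPM with CsiRNA and 1005 to 1203 TPM with NEAT1siRNA, and its part in the results was not tested. EPCAM, CDH1, ESR1 and PGR had at most 0.168 TPM, and 6 markers of blood cells and endothelium at most 0.058 TPM. Within the groups, deviations from the group mean followed the GC content of transcripts. Across 10423 genes, which are not independent replicates, Spearman's rank correlation was highest in NEAT1siRNA replicate 1, at 0.68, and lowest in replicate 2 of the same group, at -0.73. A set of 4 short noncoding RNAs (RN7SK, RN7SL1, RN7SL2 and RPPH1) took 64.4% to 68.1% of the TPM of a library. TPM have a fixed sum in every library, so this share scales the TPM of every other gene.

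KCTD12 mRNA was 2.44 times as abundant in BT-549/NEAT1siRNA as in BT-549/CsiRNA cells. Its level was 11.1, 10.1 and 9.62 TPM with CsiRNA, and 22.4, 30.2 and 22.8 TPM with NEAT1siRNA. All 3 NEAT1siRNA values lay above the CsiRNA range, and replicate 2 stood above the other two. The same libraries held 1427, 1315 and 1522 recovered reads of KCTD12 with CsiRNA, and 3098, 4400 and 2952 with NEAT1siRNA. The means were 10.3 ± 0.767 TPM (SD, n = 3) and 25.1 ± 4.35 TPM (SD, n = 3). Fold changes are given on the log2(TPM + 1) scale unless another fit is named, and this scale understates the change of low genes. On it the KCTD12 difference was 1.20 with a standard error of 0.11 from limma. Of the 10721 genes tested, those averaging 1 TPM or more over the 6 libraries, only 2 had a larger positive difference on this scale. That place depends on the scale and describes the values by which KCTD12 was chosen. DMRTA1, at place 8 on this scale, had a larger ratio of means (2.60 against 2.44). Its log2 fold change with voom on recovered reads was also larger (1.44 against 1.33). Places of all genes by ratio of means or by voom are not given.

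On GRCh38, KCTD12 spans bases 76880175 to 76886405 of chromosome 13 (minus strand), and GENCODE places no other gene over it. Its canonical transcript is a single exon of 6231 bases, of which 975 code for a protein of 325 residues. The remaining 5256 bases do not code. The other 9 genes have 5 to 18 exons, and their transcripts run from 1716 bases for KCTD13 to 5384 bases for KCTD20. The KCTD12 transcript is 43.7% GC, within a range from 38.8% in KCTD9 to 60.9% in KCTD13. The promoter of KCTD12 is shown because this is the member whose level differed most. It is the RefSeq stretch (GRCh38.p14, minus strand) from 250 bases before to 50 bases after the gene start, at chr13:76886356-76886655, printed 5′ to 3′ with an octamer motif (ATGCAAAT, the site read by POU factors) in capitals.

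KCTD12: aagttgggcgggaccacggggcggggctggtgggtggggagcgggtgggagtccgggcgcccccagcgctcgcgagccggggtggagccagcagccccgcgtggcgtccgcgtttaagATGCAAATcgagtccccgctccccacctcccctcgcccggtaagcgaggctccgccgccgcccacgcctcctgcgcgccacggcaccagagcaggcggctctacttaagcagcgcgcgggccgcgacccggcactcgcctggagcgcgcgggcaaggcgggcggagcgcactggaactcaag

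In contrast to its transcript, this window is 75.0% GC and holds 41 CpG dinucleotides, where the median promoter of the table has 58.7% and 14. Windows of the other members that were looked up ran from 38.7% GC with 6 CpG (KCTD1) up to 72.0% GC (KCTD2) and 35 CpG (KCTD20). Both strands of 35116 promoter windows were searched for letters that match a motif, which does not make a match a site. The octamer, looked for after the sequence had been seen, was found in 1.77% of all windows, and in 0 windows of the 7 other members that were looked up. The GC box GGGCGG matched 4 times in the KCTD12 window, as in that of KCTD13, and 3 times in that of KCTD5. Of all windows, 45.0% held at least 1 match, and the number of matches per window was not compared. The MYC E-box CACGTG (in 7.26% of all windows), the TATA box TATAAA (in 11.5%) and the NF-κB motif (in 11.3%) had no match there, which says only that these letters are not in this window. Of the NF-κB motif, 1 match each was found in windows of KCTD1, KCTD2, KCTD3 and KCTD13. KCTD15 had no entry. Windows on chromosome 8, where KCTD9 lies, were left out of the search for members, so KCTD9 was not looked up.

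**Figure D1:**
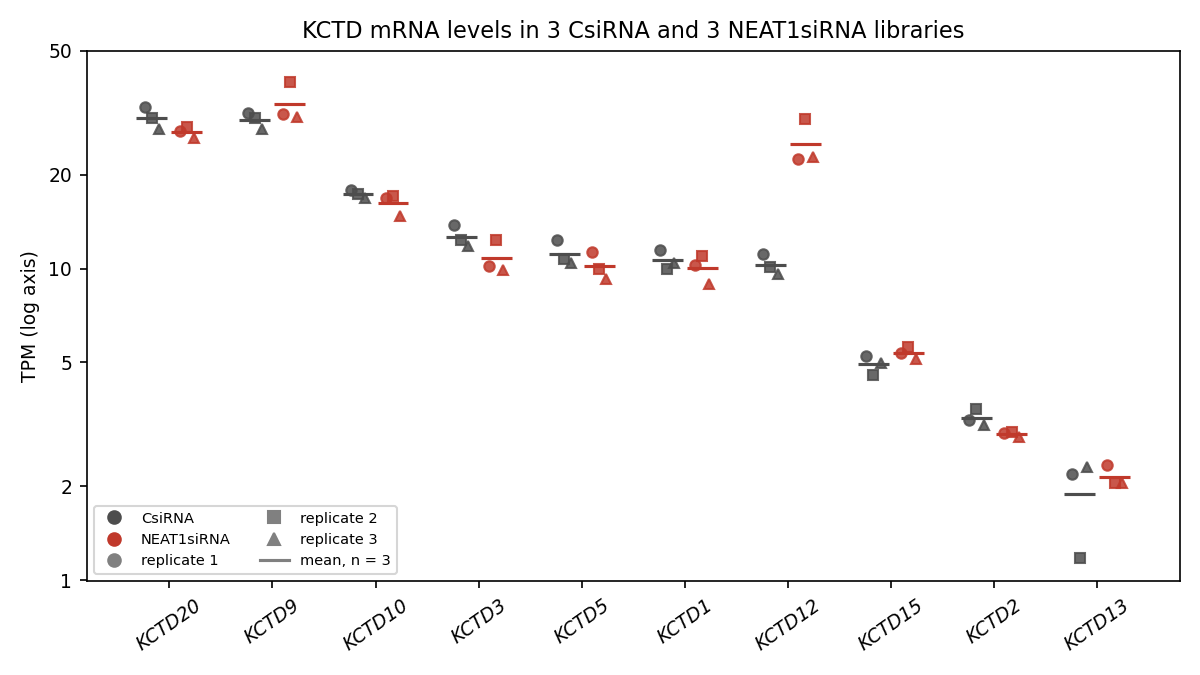
TPM of the 10 KCTD genes (log axis) in each library, ordered by the CsiRNA mean. Grey points are CsiRNA and red points NEAT1siRNA, the shape gives the replicate, and lines are means of 3 libraries. KCTD12 goes from a mean of 10.3 to 25.1 TPM, and for KCTD13 the CsiRNA replicate 2 value of 1.18 TPM lies below the other 5.

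TPM are scaled by length and can be set side by side between genes, as far as the length used for each gene holds. With CsiRNA, KCTD20 was highest, at 30.5 TPM, and its range overlapped that of KCTD9. KCTD10 followed with 17.4 TPM. KCTD3, KCTD5, KCTD1 and KCTD12 came next, with means from 12.6 down to 10.3 TPM, and neighbours in this order overlapped. KCTD15, KCTD2 and KCTD13 were lower, at 4.92, 3.31 and 1.89 TPM. With NEAT1siRNA, KCTD12 stood in place 3 instead of place 7, its range overlapped that of KCTD20 (mean 27.4 TPM) and lay wholly above that of KCTD10 (mean 16.2 TPM), and the order of the other 9 genes changed only in that KCTD9 came before KCTD20. KCTD12 made up 7.66% to 7.84% of the summed TPM of the 10 genes in the CsiRNA libraries, and 16.0%, 18.9% and 17.2% in NEAT1siRNA replicates 1, 2 and 3. The summed TPM of the 9 other genes ran from 116 to 131 with CsiRNA and from 110 to 129 with NEAT1siRNA, so these ranges overlapped.

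The 9 other members differed by at most 0.21 on the log2 scale, with standard errors of 0.092 to 0.12. Of the 10 members, KCTD12 was past an adjusted p of 0.05 in limma and 9 were not. Over all 10721 genes tested that share was 14.0%, with 4.99% higher and 8.98% lower in NEAT1siRNA cells, and since KCTD12 was picked for this contrast nothing is read from the count. Among the 9, 1 (KCTD3) had an unadjusted p under 0.05 in limma, as had 2942 of all 10721 genes tested. With voom on recovered reads 1 of the 9 (KCTD9) was past the threshold, as were 2505 of all genes tested. The NEAT1siRNA and CsiRNA values did not overlap for KCTD12 and KCTD2, 2 of 10 members, where 30.3% of all genes tested had no overlap. The median log2 fold change of the 9 was -0.096, and that of all genes tested -0.044.

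**Figure D2:**
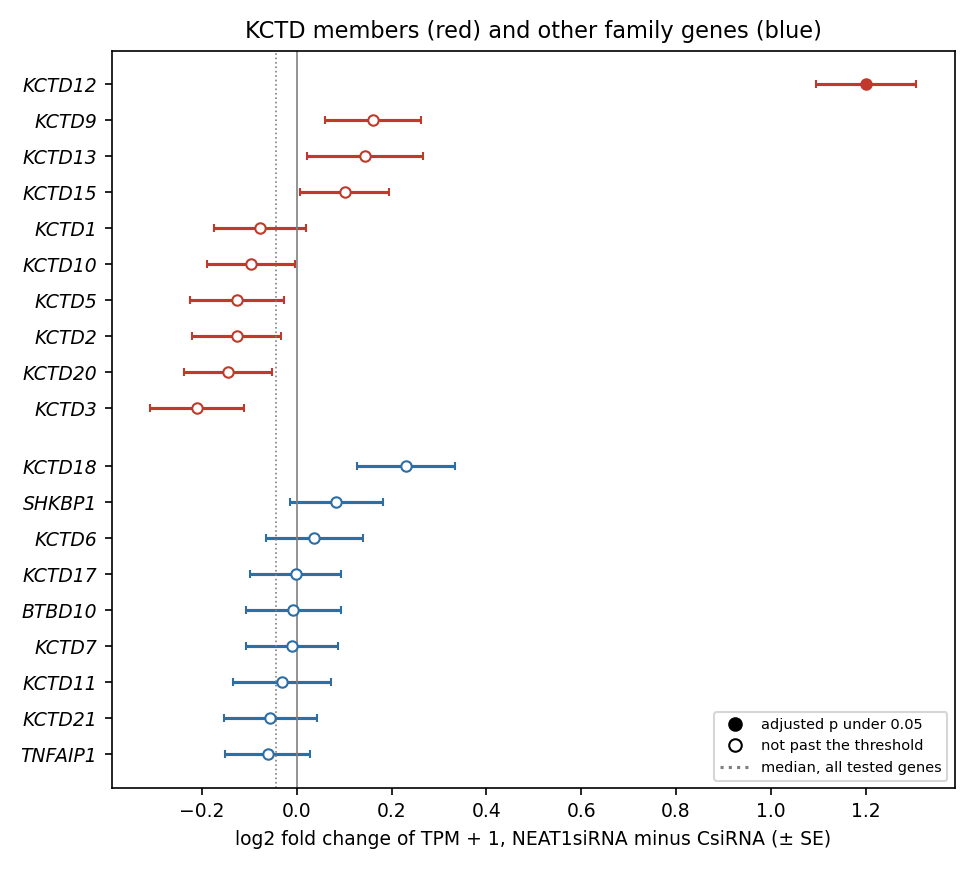
Log2 fold change of TPM + 1 (NEAT1siRNA minus CsiRNA, x axis) with its standard error for the 10 KCTD members (red) and the 9 other family genes that were tested (blue). Filled points are past an adjusted p of 0.05 over all genes, and the dotted line is the median of all genes tested. KCTD12 stands at 1.20, and the 18 other genes lie between -0.21 and 0.23.

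The CUL3 adaptors KCTD5 and KCTD2 were slightly lower on average with NEAT1siRNA. KCTD5, which brings CUL3 to G protein beta-gamma dimers, had 12.4, 10.7 and 10.4 TPM with CsiRNA and 11.3, 9.93 and 9.24 TPM with NEAT1siRNA. The groups overlapped, and the log2 fold change was -0.13 (SE 0.099). KCTD2 had 3.26, 3.53 and 3.15 TPM with CsiRNA and 2.97, 3.0 and 2.88 TPM with NEAT1siRNA. All 3 NEAT1siRNA libraries were below the lowest CsiRNA library, by a small margin, with a log2 fold change of -0.13 (SE 0.094) and a mean of 275 recovered reads. KCTD2 overlaps ATP5PD on the opposite strand, a subunit gene of the mitochondrial ATP synthase, and the strand setting of the counting is not given in the sources used here.

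KCTD10 and KCTD13 belong with TNFAIP1 to the adaptors for small GTPases, and both also bind the replication clamp PCNA. KCTD10 had 17.8, 17.4 and 16.9 TPM with CsiRNA and 16.8, 17.2 and 14.7 TPM with NEAT1siRNA, which overlap, with a log2 fold change of -0.096 (SE 0.093). KCTD13 had 2.18, 1.18 and 2.30 TPM with CsiRNA and 2.33, 2.04 and 2.05 TPM with NEAT1siRNA. The low CsiRNA replicate 2 value rests on 51 recovered reads, against 88 to 121 in the other 5 libraries. The log2 fold change of KCTD13 was 0.14 (SE 0.12), and it was -0.046 without CsiRNA replicate 2, so that its sign depended on 1 library. KCTD10 overlaps MYO1H, and KCTD13 overlaps ASPHD1, each on the opposite strand, and KCTD10 has 1 named pseudogene, as has KCTD5.

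KCTD1 and KCTD15, which hold back AP-2 transcription factors, had overlapping ranges in the 2 groups. KCTD1 had 11.5, 9.94 and 10.4 TPM with CsiRNA and 10.2, 10.9 and 8.89 TPM with NEAT1siRNA, with a log2 fold change of -0.077 (SE 0.098), and of 0.0025 with the GC and length trend removed. KCTD15 had 5.25, 4.55 and 4.97 TPM with CsiRNA and 5.34, 5.60 and 5.11 TPM with NEAT1siRNA, with a log2 fold change of 0.10 (SE 0.094), and of 0.18 with that trend removed, where it was past the threshold. AQP4-AS1 lies over KCTD1 on the opposite strand.

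KCTD3 helps the pacemaker channel HCN3 to the cell surface. It had 13.8, 12.4 and 11.8 TPM with CsiRNA and 10.2, 12.4 and 9.92 TPM with NEAT1siRNA. NEAT1siRNA replicates 1 and 3 lay below the CsiRNA range and replicate 2 within it, with a log2 fold change of -0.21 (SE 0.099). KCTD9, a CUL3 adaptor with pentapeptide repeats, had 31.6, 30.4 and 27.9 TPM with CsiRNA and 31.2, 39.6 and 30.6 TPM with NEAT1siRNA. Only NEAT1siRNA replicate 2 stood above the CsiRNA range, in the library where AT-rich transcripts were high, and the log2 fold change was 0.16 (SE 0.10). It was 0.046 without NEAT1siRNA replicate 2, and 0.17 with the trend on base composition and length removed. GENCODE names 6 pseudogene copies of KCTD9, between which reads could be shared, so its level is uncertain. KCTD20, a regulator of AKT signaling, had 33.1, 30.4 and 28.0 TPM with CsiRNA and 27.6, 28.5 and 26.2 TPM with NEAT1siRNA, with a log2 fold change of -0.15 (SE 0.092) and a small overlap of the groups. PXT1 overlaps it on the opposite strand.

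The size of the KCTD12 difference was recomputed under other processing of the same 6 libraries, on which the gene was chosen. With each library left out in turn, its log2 fold change ran from 1.07 (without NEAT1siRNA replicate 2, the highest of them) to 1.27. Over all 17 other fits it ran from 1.07 to 1.33, the latter with voom on recovered reads. Voom and the fit with a pseudocount of 0.1 are on log2 scales other than that of TPM + 1, so part of this range can come from the scale. After removal of the dependence on base composition and length it was 1.25 (SE 0.065), as large as without that step. In that fit KCTD3, KCTD9 and KCTD15 joined KCTD12 past the threshold, at log2 fold changes of -0.16, 0.17 and 0.18. Over all 10423 genes in that fit, 3468 were past it.

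**Figure D3:**
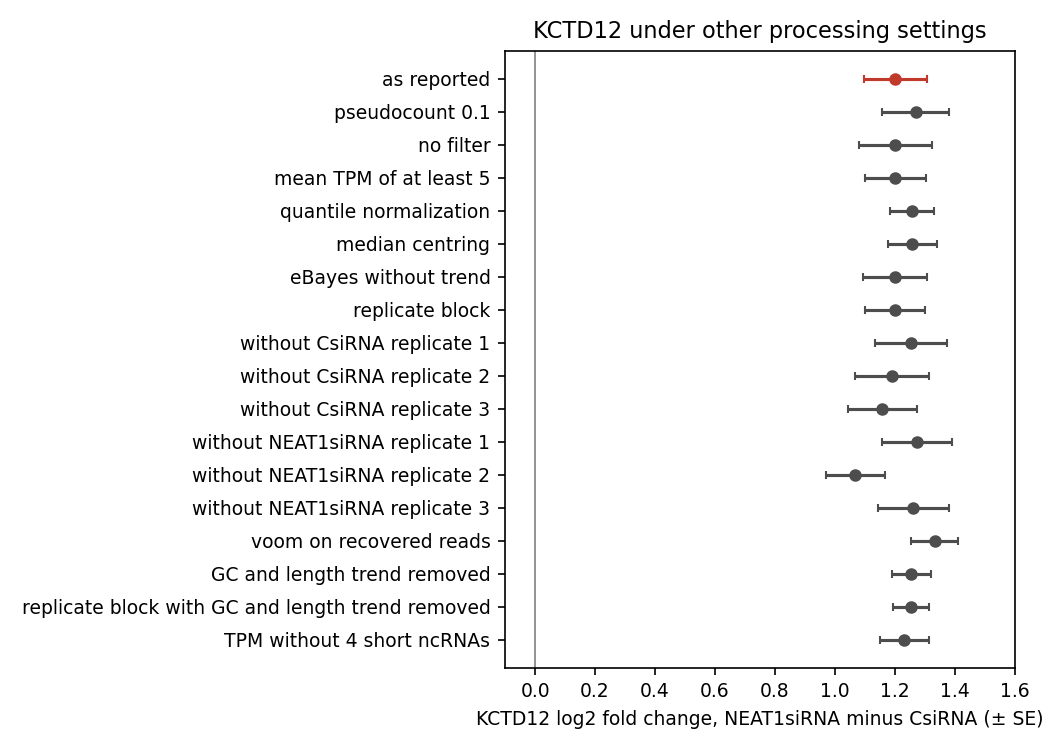
KCTD12 log2 fold change (NEAT1siRNA minus CsiRNA, x axis) with its standard error, as reported (red) and under 17 other settings (grey). All 18 values lie between 1.07 and 1.33, and the lowest is the fit without NEAT1siRNA replicate 2. Voom and the pseudocount of 0.1 use log2 scales other than that of TPM + 1.

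To see whether relatives outside the 10 genes moved, a list of 15 further KCTD genes and paralogs was followed, of which 9 were tested. In limma 0 of these 9 were past the threshold, 1 (KCTD18) had an unadjusted p under 0.05, and with voom 1 (KCTD18) was past it. Over all 10721 genes tested these counts were 1498, 2942 and 2505. KCTD18 had 1.92, 1.42 and 1.41 TPM with CsiRNA and 1.80, 2.14 and 2.13 TPM with NEAT1siRNA, which overlap, with an adjusted p of 0.142 from limma. TNFAIP1, the closest relative of KCTD10 and KCTD13, had 14.2 ± 0.602 TPM with CsiRNA and 13.6 ± 0.142 TPM with NEAT1siRNA (SD, n = 3 each), and the log2 fold change was -0.061. KCTD6, KCTD11 and KCTD21, which act on HDAC1 in Hedgehog signaling, had log2 fold changes of 0.037, -0.031 and -0.056. For KCTD7, KCTD17, SHKBP1 and BTBD10 they were -0.010, -0.0020, 0.083 and -0.0069. The closest relatives of KCTD12 were hardly detected, with 0.391 ± 0.0786 and 0.305 ± 0.0463 TPM for KCTD8 and 0.191 ± 0.0440 and 0.249 ± 0.0304 TPM for KCTD16 in CsiRNA and NEAT1siRNA cells (SD, n = 3 each). KCTD12 was thus the one gene of its GABA-B receptor clade above 1 TPM in these cells.

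By TPM, receptor and channel genes were low among the partners of KCTD12 at the GABA-B receptor, and several G protein genes were high. Means over the 6 libraries were 450 TPM for the gamma subunit gene GNG5 and 167 TPM for the beta subunit gene GNB1. GABBR1, the subunit that binds GABA, had at most 0.139 TPM in any library. That value, in CsiRNA replicate 3, stood for 86 recovered reads, where 3.31 TPM of GABBR2 stood for 484. GABBR1 thus had far more reads per TPM than GABBR2. The transcript length behind its TPM was not checked, so its level is uncertain. GABBR2, whose tail binds KCTD12, had 3.60, 3.30 and 3.31 TPM with CsiRNA and 3.21, 3.70 and 3.14 TPM with NEAT1siRNA, which overlap (log2 fold change -0.020, adjusted p = 0.924 from limma). The GIRK channel genes KCNJ3, KCNJ5 and KCNJ6, effectors of this receptor in neurons, were listed at 0 in every library. Of 27 genes on this list, 13 were tested, 1 rose and 1 fell, with a median log2 fold change of -0.011. Over all genes tested, 4.99% rose and 8.98% fell, and the median was -0.044. The share past the threshold was 15.4% here and 14.0% over all genes, so nothing is read from the count. GNB3, a G protein beta subunit, fell from 3.98, 2.03 and 4.01 TPM to 2.0, 1.24 and 1.95 TPM, with a log2 fold change of -0.64 (SE 0.14, adjusted p = 0.00351 from limma). CsiRNA replicate 2 was close to the NEAT1siRNA values, and the call was lost with median centring and with no filter on TPM (highest adjusted p = 0.193). GNG11, a gamma subunit, rose from 72.6, 66.6 and 59.9 TPM to 76.7, 90.5 and 77.6 TPM, with a log2 fold change of 0.29 (SE 0.095, adjusted p = 0.0400 from limma). The call of GNG11 was lost in 6 of 17 other fits, among them those without CsiRNA replicate 2, CsiRNA replicate 3, NEAT1siRNA replicate 2 or NEAT1siRNA replicate 3.

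The CUL3 ligase core is the scaffold on which KCTD adaptors work. Of 25 genes of the core, its neddylation and the COP9 signalosome, 24 were tested and 0 were past the threshold in limma. In limma 1 (DCUN1D3) had an unadjusted p under 0.05, and with voom 2 (DCUN1D3 and COPS8) were past it. Over all 10721 genes tested, 1498 were past the threshold in limma, 2942 had an unadjusted p under 0.05 and 2505 were past it with voom. The median log2 fold change of the 24 was -0.012. CUL3 had 16.0 ± 0.987 TPM with CsiRNA and 16.2 ± 2.31 TPM with NEAT1siRNA (SD, n = 3 each), and the log2 fold change was 0.0091 (SE 0.10). The RING subunit RBX1 had 46.2 ± 7.43 and 43.6 ± 1.70 TPM (SD, n = 3 each), and the log2 fold change was -0.069 (SE 0.10).

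Other BTB adaptors of CUL3, outside the KCTD family, were also followed. Of 43 listed, 38 were tested, 7 fell and 1 rose, with a median log2 fold change of -0.040, where 8.98% of all genes tested were lower and 4.99% higher. With voom on recovered reads 9 were lower and 7 higher, so the split depended on the method. ENC1, a kelch protein that binds actin, fell from 14.1, 13.4 and 12.0 TPM to 8.25, 8.79 and 7.48 TPM, with a log2 fold change of -0.63 (SE 0.096, adjusted p = 7.3e-05 from limma). KLHL18, the adaptor for Aurora kinase A, fell from 8.27, 7.59 and 7.27 TPM to 5.38, 4.89 and 4.63 TPM, with a log2 fold change of -0.55 (adjusted p = 0.000294 from limma). KBTBD8, an adaptor in neural crest specification, fell from 1.44 ± 0.179 to 0.667 ± 0.121 TPM (SD, n = 3 each). ENC1, KLHL18 and KBTBD8 were past the threshold in every other fit that held them. The gene that rose was KLHL24, an adaptor for keratin turnover named after its value was seen, at 3.41 ± 0.466 TPM with CsiRNA and 4.91 ± 0.808 TPM with NEAT1siRNA (SD, n = 3 each, adjusted p = 0.00994 from limma). That call was lost without CsiRNA replicate 3 and with no filter on TPM (highest adjusted p = 0.151).

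Of 33 reported partners and substrates of KCTD proteins, 23 were tested, 2 rose and 2 fell, with a median log2 fold change of -0.0027. That is 17.4% past the threshold, beside 14.0% of all genes tested, whose median was -0.044, so nothing is read from this count. HCN2, a pacemaker channel related to the KCTD3 partner HCN3, rose from 0.921, 0.997 and 1.17 TPM to 2.29, 1.93 and 1.87 TPM, with a log2 fold change of 0.58 (SE 0.10, adjusted p = 0.000261 from limma), and was past the threshold in every other fit that held it. HCN3 itself had a mean of 0.317 TPM. PRKDC, the catalytic subunit of DNA-PK and a reported partner of KCTD9, fell from 145, 104 and 113 TPM to 95.8, 87.9 and 77.1 TPM, with a log2 fold change of -0.46 (SE 0.11, adjusted p = 0.00471 from limma). RND3, an atypical small GTPase that opposes ROCK, fell from 46.4, 46.6 and 41.5 TPM to 31.5, 39.2 and 31.7 TPM, with a log2 fold change of -0.39 (SE 0.098, adjusted p = 0.00811 from limma). Neither call was kept when low genes were not filtered out, nor without CsiRNA replicate 1 or without NEAT1siRNA replicate 3 (highest adjusted p 0.144 for PRKDC and 0.0991 for RND3, from limma). GLI3, a Hedgehog transcription factor, rose from 8.74 ± 1.02 to 10.9 ± 0.611 TPM (SD, n = 3 each) at an adjusted p of 0.0496 from limma, and the call was lost in 6 of 17 other fits, including those without CsiRNA replicate 2, CsiRNA replicate 3, NEAT1siRNA replicate 1 or NEAT1siRNA replicate 3.

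RHOA, a substrate of KCTD13 and TNFAIP1, had 289 ± 21.8 TPM with CsiRNA and 309 ± 26.8 TPM with NEAT1siRNA (SD, n = 3 each), and the log2 fold change was 0.098 (adjusted p = 0.516 from limma). RHOB, a substrate of KCTD10, had 8.72 ± 0.901 and 8.70 ± 1.26 TPM (SD, n = 3 each), and the log2 fold change was -0.0068 (adjusted p = 0.979 from limma). The AP-2 genes bound by KCTD1 and KCTD15 lay apart in opposite directions without passing the threshold. TFAP2A had 29.6, 25.1 and 29.8 TPM with CsiRNA and 34.7, 34.1 and 30.7 TPM with NEAT1siRNA (adjusted p = 0.108 from limma), and TFAP2C had 12.5, 11.0 and 11.2 TPM with CsiRNA and 9.09, 9.90 and 9.93 TPM with NEAT1siRNA (adjusted p = 0.0848 from limma). With voom on recovered reads the adjusted p was 0.0109 for TFAP2A and 0.0538 for TFAP2C.

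Over these 5 lists, 14 of 107 tested genes were past the threshold, 13.1% beside the 14.0% of all genes, with 4 higher and 10 lower. With median centring 13 were higher and 8 lower, and with quantile normalization 11 and 10, so the split between higher and lower depended on the scaling of the libraries.

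**Figure D4:**
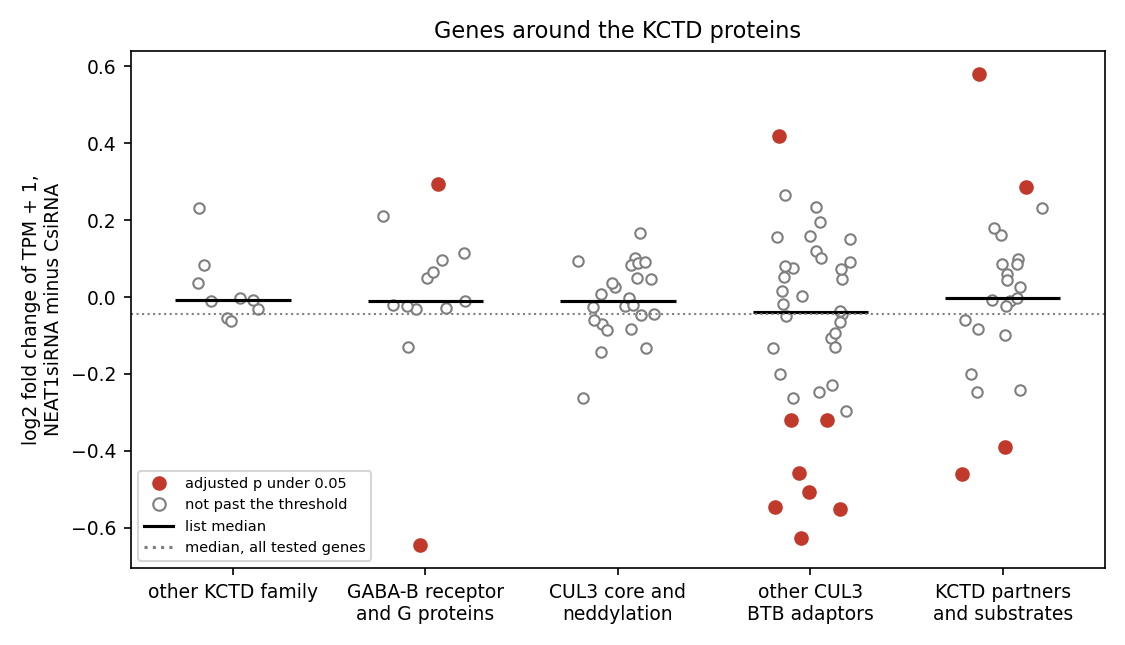
Log2 fold change of TPM + 1 (NEAT1siRNA minus CsiRNA, y axis) of the tested genes of 5 lists. Each point is 1 gene, red points are past an adjusted p of 0.05, black lines are list medians, and the dotted line is the median of all genes tested. The list medians lie between -0.040 and -0.0027, and the other BTB adaptors, the longest list with 38 of the 107 genes, hold 7 of the 10 genes that fell. With voom that list holds 9 of 13 lower and 7 of 14 higher genes.

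DMRTA1, NCALD, LINC01133 and PCDH18 were among the 5 tested genes whose pattern was most like that of KCTD12 over the 6 libraries. Likeness was the root mean square difference of log2(TPM + 1) after each gene was centred on its CsiRNA mean, and it ran from 0.16 for DMRTA1 to 0.19 for PCDH18. PCDH18, a protocadherin gene, had 6.17, 5.10 and 5.15 TPM with CsiRNA and 10.8, 13.6 and 10.2 TPM with NEAT1siRNA. As for KCTD12, NEAT1siRNA replicate 2 was the highest library for these 4 genes. NCALD, a neuronal calcium sensor gene, had 3.25, 3.11 and 2.87 TPM with CsiRNA and 7.22, 7.62 and 6.90 TPM with NEAT1siRNA. The libraries that set this likeness also set the choice of KCTD12, so these values are a description.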

How the data were processed

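RNA-seq was analysed in 6 BT-549 libraries, grouped by sample title. Per the labels and the study's methods, the authors made TruSeq Stranded mRNA libraries, aligned them with STAR to GRCh38 and used DESeq2. The gene counter, its strand setting and annotation are not given in the sources used here. The authors deposited TPM per gene and library. Of their comparison table only the mean normalized count, a signal averaged by the authors over the libraries, was used, and its fold changes, scores and p-values were left out.

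Since a count test cannot be run on TPM, log2(TPM + 1) was compared with limma 3.58.1 (lmFit, eBayes with trend, R 4.3.3) for the 10721 genes averaging at least 1 TPM. P-values were two-sided and Benjamini-Hochberg adjusted over these genes (threshold 0.05). They set the difference of the group means against the spread between triplicate cultures, which limma moderates with that of the other genes tested. Whole reads were recovered by joining both tables. Of the values of genes with a mean normalized count below 5, 99.8% fell within 0.05 of an integer, and above 500 only 12.4%, so reads of high genes are approximate. Other filters, scalings, pseudocounts, voom, removal of a GC and length trend, a replicate block and leaving out each library were tried.

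Coordinates, GC content and length came from GENCODE 44 by symbol, with 779 older symbols resolved and 2488 genes unmatched. The members, lists and tests were chosen with earlier results of these data known. The genes named are the 10 members, the tested family genes, up to 4 genes past the threshold per list by size of change, 8 defining genes (GABBR1, GABBR2, CUL3, RBX1, RHOA, RHOB, TFAP2A and TFAP2C), the 5 genes most like KCTD12, and NEAT1. The others were named after their values were seen, and a few genes that the rule selects are not reported here.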

Additional observations from a re-analysis of the deposited data

How the results depend on the processing

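KCTD12 was chosen on these libraries, so its place past the threshold under the 17 other settings supports nothing. Its log2 fold change ran from 1.07 to 1.33 over them. Of the 10 members, 1 was past the threshold as reported, 2 with voom on recovered reads (KCTD9 and KCTD12), and 4 with the GC and length trend removed, alone or with the replicate block (KCTD3, KCTD9, KCTD12 and KCTD15). With each library left out it was 1 to 2, the second being KCTD3 without NEAT1siRNA replicate 2. Of the related genes on the 5 lists, 14 were past it as reported, 5 with no filter on TPM, 9 with a mean TPM of at least 5, 27 with voom, 39 with the trend removed, 38 with the trend removed and the block, and 9 at an adjusted p under 0.01. With each library left out it was 7 (without NEAT1siRNA replicate 3) to 20, and without CsiRNA replicate 1 it was 9. Over all genes, 1498 were past it as reported, 505 with no filter, 2505 with voom, 3468 with the trend removed, 3391 with the trend removed and the block, 719 at an adjusted p under 0.01, and 759 (without CsiRNA replicate 1) to 2083 with each library left out; without NEAT1siRNA replicate 3 it was 838. The split over all genes was 535 higher and 963 lower as reported, 1082 and 1109 with quantile normalization, and 1158 and 954 with median centring. It was 917 and 1180 with TPM recomputed without the 4 short noncoding RNAs. The number of genes tested was 18531 with no filter and 7237 with a mean TPM of at least 5. With no filter the standard error of KCTD12 was 0.12, against 0.11 as reported. The causes of these shifts in the counts were not tested.

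Whether replicate numbers pair the libraries could not be settled. Deviations from the group means correlated across genes at -0.030, 0.25 and -0.11 for numbers 1, 2 and 3, and CsiRNA replicate 3 correlated best with NEAT1siRNA replicate 1 (0.40). The deviations of both these libraries rose with GC content (Spearman's rank correlation 0.47 and 0.68), so such correlations cannot show whether the numbers pair the libraries. With the replicate block, 1640 genes were past the threshold, with 1 of the members and 14 of the related genes, the counts as reported for both. TPM keep no depth, and KCTD13, at a mean of 93.2 recovered reads, is the least precise member.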
